A study of Mus musculus with 5 samples.

Results

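Interferon-stimulated genes are the genes a cell switches on when it senses an interferon. Their transcripts were followed in Ter119+ bone marrow cells of wild-type (WT) mice and of Polg mutant mice. The 39 genes are a list of known genes of the interferon response, taken by name, with earlier results of these data known. Of these, 36 were measured, among 22180 genes in all, each through the brightest probe set that carried its symbol alone. Oas1a and Dtx3l had only probe sets paired with a second gene, Ifi44 had no probe set paired with its symbol, and these 3 were not analysed here.

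There were 2 WT arrays, labelled Polgtm1Lrsn wt/wt, and 3 Polg mutant arrays, labelled Polgtm1Lrsn mt/mt, all from the C57BL/6 background. The Polg mutant, or mtDNA-mutator, mouse carries a mitochondrial DNA polymerase without proofreading. Marrow was depleted of cells bearing CD45 and then selected for Ter119, an erythroid surface antigen. The mice of both groups were phlebotomized by the series' design text, although the treatment field reads none, and their ages and bleeding times are not stated in the labels. All 5 arrays came from matings of parents with floxed Atg7 alleles, Atg7 being an autophagy gene, with an Epo-cre allele on the father's side only. The labels do not state which offspring inherited the Cre. The labels do not say that arrays came from separate animals, so the spread behind each p-value is that among these samples and may be technical. Values are log2 expression levels, with array medians between 5.10 and 5.13, and the small number of arrays limits the precision of each. Polg itself read 6.97 on every array, which checks no label, because the mutant allele still makes a transcript.

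Type I and type III interferons act through receptors that activate the kinases JAK1 and TYK2. These phosphorylate STAT factors such as STAT2, which joins IRF9 in a complex, ISGF3, that binds the interferon-stimulated response element of target promoters. Interferon gamma signals through JAK1 and JAK2 to another promoter sequence, the gamma-activated site. The target genes encode nucleic acid sensors, antiviral enzymes, the factors of the pathway itself and its inhibitors. Cells make the interferons after cytosolic DNA or RNA is sensed, and mitochondrial DNA released into the cytosol is a known ligand of the sensor cGAS.

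The promoters of 6 members are shown because they carry, or do not carry, the response element that ISGF3 binds and because their genes recur below. Each is the 250 bases before the transcription start, 5′ to 3′ on the gene's strand, from RefSeq's GRCm38.p6 annotation. Capitals mark each match, on either strand, to a strict form of the interferon-stimulated response element, which is GAAA, any 2 bases and GAAA again. Overlapping matches run together.
Oas1g, chr5:120887614-120887863, minus strand: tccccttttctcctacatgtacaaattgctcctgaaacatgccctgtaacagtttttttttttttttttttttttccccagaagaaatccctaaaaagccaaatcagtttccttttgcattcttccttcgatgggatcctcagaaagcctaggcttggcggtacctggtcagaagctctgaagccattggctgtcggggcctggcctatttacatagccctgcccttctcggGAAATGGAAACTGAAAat
Isg15, chr4:156200819-156201068, minus strand: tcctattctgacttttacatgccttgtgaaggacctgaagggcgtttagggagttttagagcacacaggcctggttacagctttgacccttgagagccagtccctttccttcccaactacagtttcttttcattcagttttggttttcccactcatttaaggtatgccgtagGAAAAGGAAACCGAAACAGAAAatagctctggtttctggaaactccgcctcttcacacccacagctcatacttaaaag
Ifit1, chr19:34640639-34640888, plus strand: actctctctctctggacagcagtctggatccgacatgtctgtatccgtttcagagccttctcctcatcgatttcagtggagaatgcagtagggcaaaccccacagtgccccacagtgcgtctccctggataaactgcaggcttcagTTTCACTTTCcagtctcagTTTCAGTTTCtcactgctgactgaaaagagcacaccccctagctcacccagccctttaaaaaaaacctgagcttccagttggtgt
Ifit3, chr19:34583279-34583528, plus strand: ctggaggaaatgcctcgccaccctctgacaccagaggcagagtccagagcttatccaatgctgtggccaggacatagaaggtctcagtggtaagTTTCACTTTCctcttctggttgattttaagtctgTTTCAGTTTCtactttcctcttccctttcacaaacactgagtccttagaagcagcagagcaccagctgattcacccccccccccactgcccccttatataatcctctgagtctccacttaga
Rsad2, chr12:26456453-26456702, minus strand: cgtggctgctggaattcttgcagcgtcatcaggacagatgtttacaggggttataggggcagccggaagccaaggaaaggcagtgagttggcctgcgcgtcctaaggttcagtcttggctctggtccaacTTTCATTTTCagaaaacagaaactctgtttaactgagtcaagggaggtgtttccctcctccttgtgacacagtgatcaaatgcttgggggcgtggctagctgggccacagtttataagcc
Cmpk2, chr12:26468965-26469214, plus strand: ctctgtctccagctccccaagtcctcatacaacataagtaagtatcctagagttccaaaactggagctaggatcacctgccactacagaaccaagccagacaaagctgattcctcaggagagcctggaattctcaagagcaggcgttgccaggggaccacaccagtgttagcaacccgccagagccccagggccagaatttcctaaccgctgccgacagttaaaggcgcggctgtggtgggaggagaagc
In Oas1g the matches began 18 and 12 bases before the start and overlapped. Isg15 held 3 overlapping matches, the first 78 bases before the start. Ifit1 held matches 104 and 85 bases before the start, and Ifit3 the same letters, TTTCACTTTC and TTTCAGTTTC, 156 and 122 bases before it. Rsad2 held 1 match, 120 bases before the start, and Cmpk2, the neighbouring gene, held none of these letters in this window.

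Promoters from 250 bases before to 50 bases after the start were found for 28 of the 39 listed genes. This response element lay in a promoter of 11 of these 28 genes (39.3%) and of 3.99% of all 27025 genes in the table. TTCNNNGAA, the gamma-activated site, which reads the same on both strands, lay in 6 of the 28 (21.4%), against 9.55% of all genes. In Bst2 the matches to both motifs overlapped. Among the 10 measured members with the response element, 7 had a higher mean in the Polg mutant and the median difference was 0.26. Among the 15 measured members whose promoter held no match, 9 were higher and the median difference was 0.096. A match is a description of letters and does not show binding.

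Most of the measured members were higher on the Polg mutant arrays, but none passed the test. A difference is the mean log2 level of the Polg mutant arrays less that of the WT arrays, followed by its moderated standard error (SE) from limma, and p-values were adjusted over all 22180 genes by the method of Benjamini and Hochberg. The mean was higher in the Polg mutant for 24 members, against 46.6% of all genes, and lower for 12, against 48.3%. The median difference was 0.18, and that over all genes was 0. At an adjusted p under 0.05, limma called 0 members and 0% of all genes in either direction, and the lowest adjusted p of a member was 0.283, for Cmpk2. Before adjustment, p lay under 0.05 for 7 higher members (19.4%), where 4.18% of all genes were higher, and 3 lower members (8.33%), where 5.33% of all genes were lower.

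The lowest Polg mutant array lay above the higher WT array for 16 members (44.4%), against 8.36% of all genes, and below both for 3 (8.33%), against 9.73%. Exact ties between arrays are common in these data, in 67.9% of all genes and 8 of the 36 members, and they lower the share over all genes. Among genes with 5 distinct values, 19.7% lay above and 23.7% below, and of the 28 members with 5 distinct values 15 lay above and 3 below. Members share their regulators and are not independent of each other, so these counts describe the list and were not tested. The 16 members with no overlap on the higher side were Oas1b, Oas1g, Oas2, Oas3, Oasl2, Ifit1, Zbp1, Irf7, Rsad2, Bst2, Samd9l, Isg15, Parp14, Ifi27, Ifi35 and Sp100. The 3 on the lower side were Cmpk2, Ifit2 and Stat2.

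WT replicate 1 stood apart from the other arrays in these genes. It alone held the lowest value of the 5 arrays for 21 members (58.3%), against 18.5% of all genes and 22.2% of genes with 5 distinct values. In 13 of these 21 all Polg mutant arrays lay above both WT arrays, so only a WT array could be the lowest. For those 13 the count partly repeats the one above. The groups overlapped in the other 8. WT replicate 2 was above WT replicate 1 for 26 members, against 41.9% of all genes, by a median of 0.33 over all 36, where the median of this difference over all genes was 0. The mean level over the 36 members was 7.87 in WT replicate 1, 8.26 in WT replicate 2 and 8.54, 8.28 and 8.45 in Polg mutant replicates 1, 2 and 3. WT replicate 2 thus lay closer to Polg mutant replicate 2 than to WT replicate 1. Without WT replicate 1 the median difference of the members was 0.046, and without WT replicate 2 it was 0.27. For most members the value against WT replicate 2 alone is therefore given beside the difference below.

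**Figure D1:**
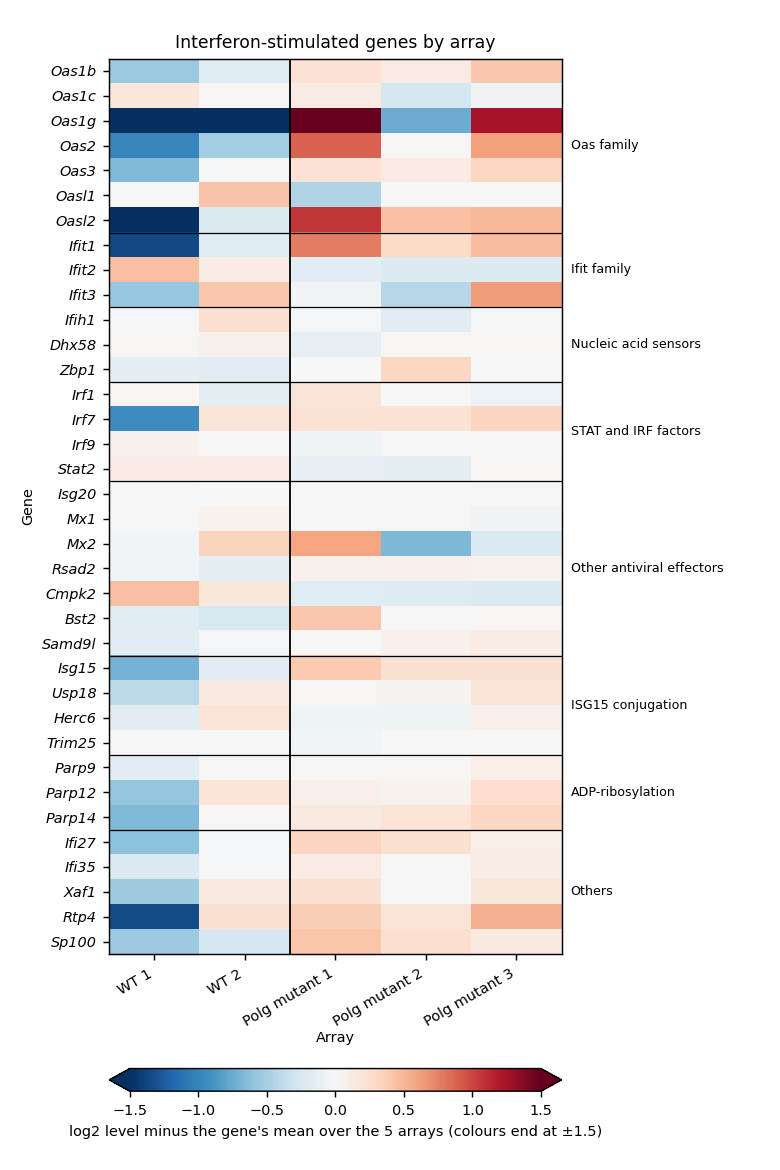
Heat map of the 36 measured members (rows, grouped by role) on the 5 arrays (columns), coloured by log2 level minus the gene's own mean over the arrays, with colours ending at ±1.5. The WT replicate 1 column is the lowest for 21 members, and Oas1g has the widest spread over the Polg mutant arrays.

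The 2'-5'-oligoadenylate synthetases make the short adenylate chains that activate RNase L, which cuts viral and cellular RNA. Of the 7 measured members of this family 5 were higher and 2 lower, and the median difference was 0.62. Oas2 read 6.99 and 7.48 on the WT arrays and 8.88, 8.02 and 8.62 on the Polg mutant arrays. The groups did not overlap, and Oas2 was the member with the second-largest difference from WT replicate 2 alone, 1.02. Its difference from both WT arrays was 1.27 ± 0.34 (SE, limma adjusted p = 0.387).

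Oas1g read 3.04 and 4.11 in WT, against 9.49, 4.97 and 6.95 in the Polg mutant. All 3 Polg mutant arrays lay above both WT arrays, but they differed among themselves by 4.52 log2 units, which exceeds the difference between the group means, 3.56 ± 1.56 (SE, limma adjusted p = 0.638). The WT levels lay near or below the arrays' lower quartiles, 3.95 to 4.02, and their signal over background was not known, so no fold is given. Leaving out Polg mutant replicate 1 lowered the difference to 2.39, and leaving out Polg mutant replicate 2 raised it to 4.64. Oas1g and Oas1a are neighbouring, closely similar copies and a second probe set is paired with both, so whether the one used here separates them is uncertain.

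Oasl2, a ubiquitin-like relative of the synthetases, read 8.63 and 10.23 in WT, against 11.52, 10.90 and 10.95 in the Polg mutant. The difference was 1.69 ± 0.58 (SE, limma adjusted p = 0.515), and WT replicate 2 alone differed from the Polg mutant mean by 0.89. The gap between the WT arrays, 1.60, was nearly as large as the difference between the groups. Oas1b, which is truncated in C57BL/6 mice by a nonsense change known for flavivirus susceptibility, read 8.42 and 8.79 in WT, against 9.20, 9.10 and 9.39 in the Polg mutant, a difference of 0.62 ± 0.16 (SE), or 0.44 against WT replicate 2 alone. Oas3, which makes the longer chains, read 10.45 and 11.13 in WT, against 11.33, 11.25 and 11.43 in the Polg mutant, with WT replicate 1 apart from the other 4 arrays. It differed by 0.55 against both WT arrays and by 0.21 against WT replicate 2.

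The other measured members of the family had lower means. Oasl1, the neighbour of Oasl2 and an inhibitor of Irf7 translation, read 7.24 and 7.66 in WT, against 6.78, 7.24 and 7.24 in the Polg mutant. Its difference was -0.36 ± 0.23 (SE), or -0.57 against WT replicate 2 alone, and WT replicate 1 shared its value with 2 Polg mutant arrays. Oas1c lay between 5.98 and 6.41 on the 5 arrays, its groups overlapped, and it differed by -0.16, or by -0.096 against WT replicate 2 alone.

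Ifit proteins bind viral RNA ends and block its translation. The 3 members differed in direction. Ifit1 read 8.62 and 9.79 in WT, against 10.74, 10.26 and 10.45 in the Polg mutant, which is 1.28 ± 0.42 (SE, limma adjusted p = 0.496) higher, or 0.69 against WT replicate 2 alone. Ifit2 ran the other way, at 5.58 and 5.24 in WT, against 4.97, 4.92 and 4.92 in the Polg mutant, a difference of -0.47 ± 0.11 (SE, limma adjusted p = 0.341), or -0.30 against WT replicate 2 alone. These levels of Ifit2 are near the array medians, and signal over background was not known. Ifit3, the neighbour of Ifit2 and a binding partner of Ifit1, read 5.87 and 6.84 in WT, against 6.40, 6.01 and 7.07 in the Polg mutant, so its groups overlapped. Ifit3 differed by 0.14 ± 0.49 (SE) and by -0.35 against WT replicate 2 alone. Its promoter holds the same letters at both matches as that of Ifit1, at other distances from the start, and their part in these levels was not tested.

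The sensors were close to level. Ifih1, which encodes the long double-stranded RNA sensor MDA5, lay between 8.87 and 9.27, with the highest value on WT replicate 2 and a difference of -0.17, or -0.31 against that array alone. Dhx58, which encodes the regulator LGP2, differed by -0.070 and had the same value, 7.45, on WT replicate 1 and Polg mutant replicates 2 and 3. Zbp1, the sensor of left-handed nucleic acids that triggers necroptosis, was the 1 sensor with no overlap. It read 5.89 and 5.86 in WT, against 6.05, 6.35 and 6.03 in the Polg mutant, 0.26 ± 0.12 (SE, limma adjusted p = 0.638) higher, and it did not share the low WT replicate 1 value.

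**Figure D2:**
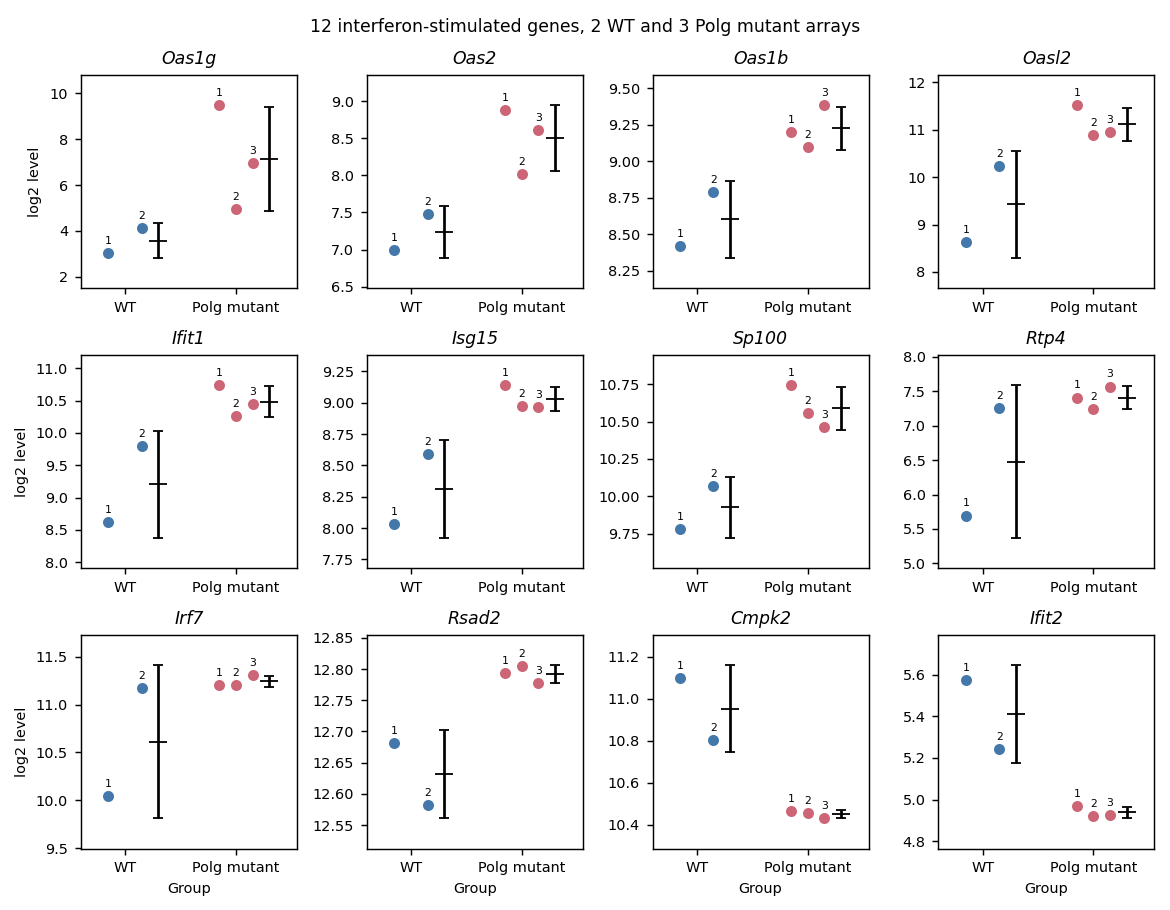
Log2 levels of 12 members on each array (points, numbered by replicate; blue, WT; red, Polg mutant) with the group mean and SD beside them; each panel has its own axis, which does not start at 0. Of these members only Rtp4 overlaps between groups. Rtp4 and Irf7 are low on WT replicate 1 alone, and Cmpk2 and Ifit2 are lower on every Polg mutant array.

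Among the factors that carry the signal, Irf7 and the ISGF3 subunits parted. Irf7, the factor that amplifies interferon alpha transcription, read 10.05 and 11.18 in WT, against 11.21, 11.21 and 11.31 in the Polg mutant. The Polg mutant arrays lay above both WT arrays, but by only 0.066 on average over WT replicate 2, and the difference of 0.63 ± 0.38 (SE, limma adjusted p = 0.638) came with a gap of 1.13 between the WT arrays. Stat2, a subunit of ISGF3, read 8.43 and 8.42 in WT, against 8.18, 8.16 and 8.33 in the Polg mutant. It was lower on every Polg mutant array, with a difference of -0.20 ± 0.06 (SE, limma adjusted p = 0.463), and the WT arrays nearly coincided. Irf9, the DNA-binding subunit, differed by -0.050, or by -0.020 against WT replicate 2 alone, and shared the value 9.57 on 3 arrays. Irf1, the factor induced chiefly by interferon gamma, differed by 0.096, or by 0.19 against WT replicate 2 alone, with overlapping groups and dim levels of 5.44 to 5.79.

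Of the 7 other antiviral effectors 4 were higher and 3 lower, with a median difference of 0.019. Rsad2, which encodes viperin, and Cmpk2, which encodes a mitochondrial nucleotide kinase, are neighbours and are known to be induced together. Here their differences had opposite signs. Cmpk2 read 11.10 and 10.81 in WT, against 10.47, 10.46 and 10.43 in the Polg mutant, a difference of -0.50 ± 0.10 (SE, limma adjusted p = 0.283), or -0.35 against WT replicate 2 alone. Rsad2 read 12.68 and 12.58 in WT, against 12.79, 12.80 and 12.78 in the Polg mutant, a difference of 0.16 ± 0.04 (SE, limma adjusted p = 0.338) near the top of the scale, where the highest value of any probe set was 14.1. Neither gene's groups overlapped, and the Polg mutant arrays spanned 0.035 log2 units in Cmpk2 and 0.028 in Rsad2.

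Isg20, an exonuclease, read 12.29 on 4 arrays and 12.26 on WT replicate 1. Mx1 and Mx2 encode dynamin-like GTPases that block viral replication, and C57BL/6 mice carry defective alleles of both. Mx1 lay between 3.87 and 3.98 on all arrays, near their lower quartile. Mx2 ranged from 3.73 to 4.99 with both extremes in the Polg mutant, and its difference was -0.24 ± 0.45 (SE), or -0.43 against WT replicate 2 alone. Bst2, or tetherin, which holds budding virions at the cell surface, read 5.17 and 5.10 in WT, against 5.75, 5.34 and 5.37 in the Polg mutant, 0.35 higher. Samd9l, an antiproliferative gene of the endosome, was higher by 0.14, or by 0.071 against WT replicate 2 alone, and likewise did not overlap. All of Bst2, Samd9l, Mx1 and Mx2 were dim, under a log2 of 6.

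The ISG15 system couples the ubiquitin-like protein ISG15 to other proteins. Isg15 read 8.04 and 8.59 in WT, against 9.14, 8.97 and 8.97 in the Polg mutant, and the groups did not overlap. The difference was 0.72 ± 0.20 (SE, limma adjusted p = 0.400), or 0.44 against WT replicate 2 alone. The other 3 members of this system overlapped between groups, and whether they differed from Isg15 was not tested. Usp18, which removes ISG15 and also silences the interferon receptor, read 9.43 and 9.97 in WT, against 9.85, 9.87 and 10.02 in the Polg mutant, and its difference went from 0.22 to -0.052 without WT replicate 1. Herc6, the ligase that attaches ISG15 in mice, differed by -0.031, and by 0.16 without WT replicate 2. Trim25, the ligase that ubiquitinates the RNA sensor RIG-I, read 8.83 on 4 arrays and 8.78 on Polg mutant replicate 1. Uba7, the enzyme that activates ISG15 and no member of the list, was picked out after its values were seen. It differed by 0.38 ± 0.10 (SE, limma adjusted p = 0.405), with no overlap.

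The ADP-ribosyltransferases among the members act on viral and host proteins. Parp14 read 7.89 and 8.57 in WT, against 8.69, 8.76 and 8.87 in the Polg mutant, a difference of 0.54 ± 0.24 (SE), or 0.20 against WT replicate 2. Parp12 read 8.17 and 8.96 in WT, against 8.83, 8.81 and 9.01 in the Polg mutant, and its difference went from 0.32 to -0.077 without WT replicate 1. Parp9, the partner of Dtx3l, had 1 shared value on WT replicate 2 and Polg mutant replicates 1 and 2, lay between 7.82 and 8.08, and differed by 0.12, or by 0.025 against WT replicate 2 alone. In all 3 genes WT replicate 1 was the lowest array.

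The 5 remaining members were all higher, with a median difference of 0.54, and WT replicate 1 was the lowest array in each. Sp100, a scaffold of PML nuclear bodies, read 9.78 and 10.07 in WT, against 10.74, 10.56 and 10.46 in the Polg mutant, with no overlap. Its difference of 0.66 ± 0.14 (SE, limma adjusted p = 0.291) stayed at 0.52 against WT replicate 2 alone. Of its 3 dimmer probe sets, 1 differed by 0.70, and the others by 0.24 and 0.021. Rtp4, a chaperone of G-protein-coupled receptors, read 5.70 and 7.26 in WT, against 7.41, 7.24 and 7.57 in the Polg mutant. WT replicate 2 lay within the Polg mutant range, and the difference of 0.93 ± 0.54 (SE) became 0.14 against it alone. Ifi27, a mitochondrial and nuclear envelope protein gene, differed by 0.54 with no overlap, or by 0.24 against WT replicate 2 alone. Ifi35, which partners NMI, differed by 0.20 with no overlap, or by 0.099 against WT replicate 2 alone, and its dimmer probe set differed by -0.0068. Xaf1, which counters the inhibitor of apoptosis XIAP, differed by 0.34, and by 0.0022 without WT replicate 1.

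**Figure D3:**
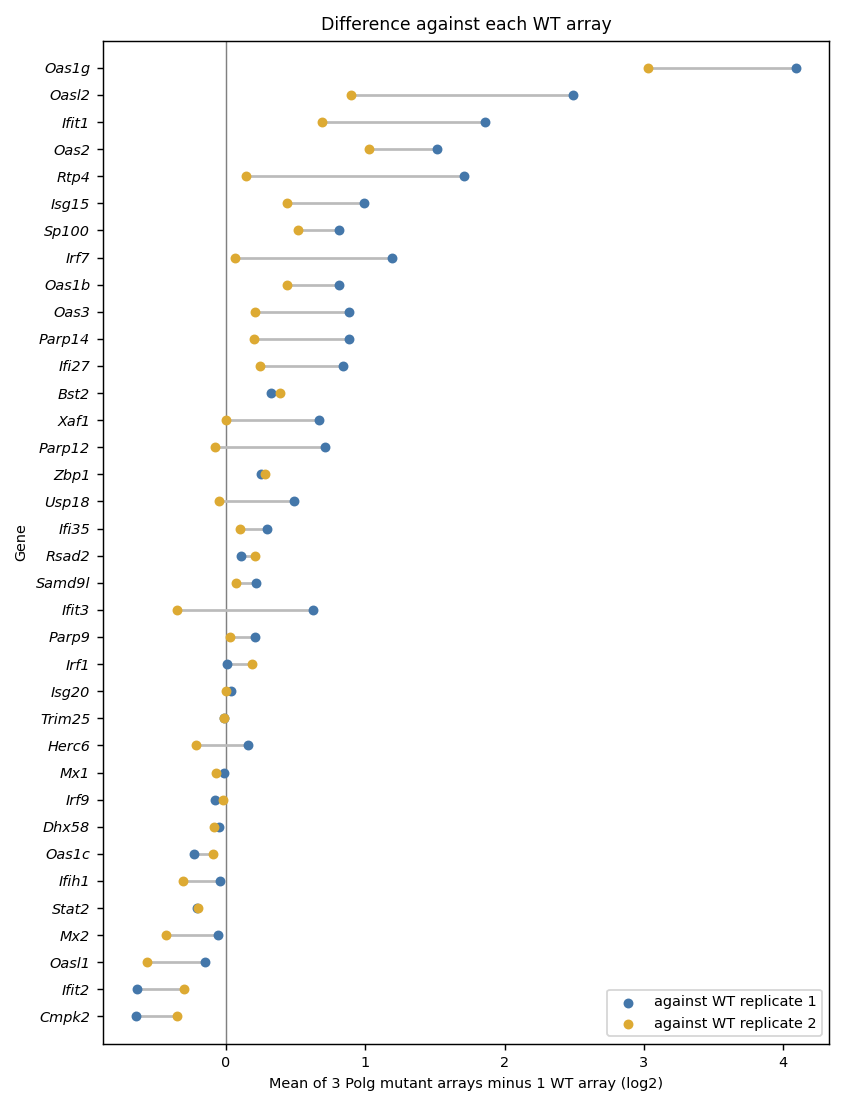
Mean of the 3 Polg mutant arrays minus WT replicate 1 (blue) or minus WT replicate 2 (yellow), in log2 units, for the 36 members ordered by the difference from both. Oas1g, Oasl2, Ifit1 and Oas2 stay to the right of 0 against either WT array, Rtp4 and Irf7 shrink to 0.14 and 0.066 against WT replicate 2, and Ifit3, Usp18, Parp12 and Herc6 have opposite signs against the 2 WT arrays.

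Against WT replicate 2 alone the mean of the Polg mutant arrays was higher for 20 members, and against WT replicate 1 alone for 25. The largest differences that remained against WT replicate 2 were those of Oas1g (3.03), Oas2 (1.02), Oasl2 (0.89) and Ifit1 (0.69). Fits with 1 WT array, whose lone WT array is taken to have the spread of the mutants, passed Ifit2 and Cmpk2 as lower and Rsad2 as higher without WT replicate 1. Without WT replicate 2 they passed Ifit2 and Cmpk2 as lower and Irf7 as higher. Those fits passed 713 higher and 1068 lower genes without WT replicate 1, and 511 and 413 without WT replicate 2. Without WT replicate 1, the calls took 2.78% of members and 3.21% of all genes on the higher side, and 5.56% and 4.82% on the lower side. Without WT replicate 2 they took 2.78% and 2.30% on the higher side and 5.56% and 1.86% on the lower side, so shares of members on the higher side were near those of all genes.

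Over the Polg mutant arrays the members were no more variable than other genes in the middle of their range. The median SD over the 3 arrays was 0.095 for the members, 0.087 over all genes and 0.099 over the genes that passed a log2 of 6 on 2 or more arrays. A range of at least 1 log2 unit occurred in 3 members (8.33%), against 1.46% of all genes. These were Oas1g with a range of 4.52, Mx2 with 1.26 and Ifit3 with 1.06. The SD of Oas1g, 2.27, was larger than that of 99.991% of all genes, while the highest SD of any gene was 4.40. After Oas1g came Mx2 with an SD of 0.64, Ifit3 with 0.54, Oas2 with 0.44 and Oasl2 with 0.35.

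The Polg mutant arrays differed in how often they were the extreme array. Polg mutant replicate 2 was alone the lowest of the 3 for 18 of the 36 members, against 18.7% of all genes. It was alone the highest for 2 of the 36, against 18.4%. Polg mutant replicate 1 was alone the highest for 15 members, against 22.1% of all genes, and Polg mutant replicate 3 for 13, against 29.5%. These are counts among 36 members. Ties between arrays, found in 67.9% of all genes but only 8 of the 36 members, lower the shares over all genes, so the counts and shares are not fully alike. In Oas1g, Oas2, Ifit1 and Oas3 the lowest Polg mutant array was replicate 2 each time. The SD was small for Isg20 (0), Rsad2 (0.014), Cmpk2 (0.018) and Ifit2 (0.027). The WT arrays lay further apart than this, by 0.29 in Cmpk2, 0.33 in Ifit2 and 0.10 in Rsad2.

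**Figure D4:**
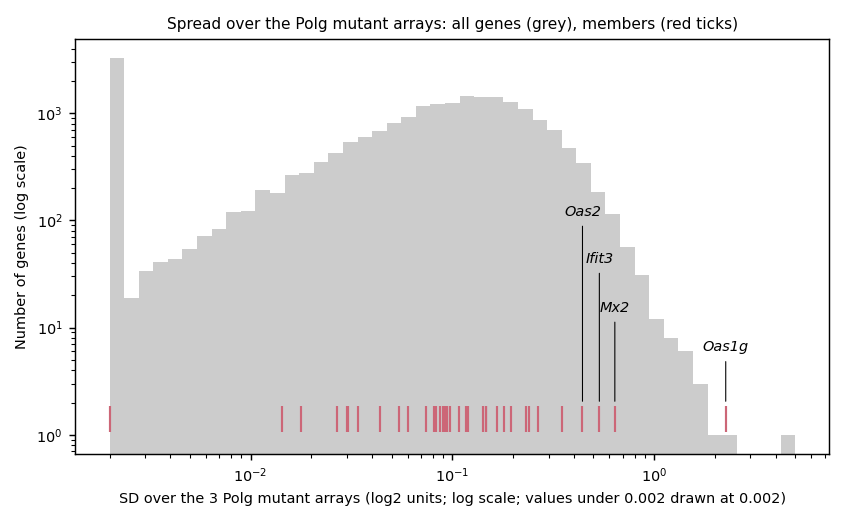
Histogram of the SD over the 3 Polg mutant arrays for all 22180 genes (grey; both axes logarithmic, SDs under 0.002 drawn at 0.002) with the 36 members as red ticks. Most of the members' ticks follow the middle of the grey distribution, and Oas1g, at 2.27, lies in its far tail. Mx2, Ifit3 and Oas2 also lie in the upper tail, above 99.3%, 98.6% and 97.3% of all genes.

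The rest of the pathway was taken from lists of ligands, receptors, kinases, inhibitors, sensors, nucleic acid clearance genes and other inducible genes, 130 of 149 measured. None passed limma's adjusted threshold in either direction, and before adjustment p lay under 0.05 for 11 higher and 8 lower genes of the 130, against 4.18% and 5.33% of all genes. The 19 interferon ligand genes had a median difference of -0.089. None lay above both WT arrays on every Polg mutant array and 2 lay below, against 8.36% and 9.73% of all genes. Ifnb1, the gene of interferon beta, read 3.28 on 4 arrays and 3.49 on Polg mutant replicate 3, and Ifng, the gene of interferon gamma, 4.88 on 4 arrays and 4.89 on that array. Both are dim. Ifna4, Ifna14, Ifnab and Ifnl2, the ligand genes of smallest p, differed by -0.15 to -0.38.

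Receptor genes differed in direction. Ifnar1, the first chain of the type I receptor, read 9.52 and 9.28 in WT, against 9.12, 9.24 and 9.12 in the Polg mutant, a difference of -0.24 ± 0.09 (SE), and Ifnar2, the second, differed by -0.23 with overlapping groups. Ifngr2, a chain of the gamma receptor, was higher by 0.43 without overlap, Il10rb, which serves the type III receptor, by 0.30, and Ifngr1 by 0.27, both with overlap. Against WT replicate 1 alone Ifngr1 differed by -0.048, and against WT replicate 2 alone Ifnar1 differed by -0.12, Ifnar2 by -0.41 and Il10rb by 0.18. Among the kinases, Jak2, which also serves the erythropoietin receptor, read 10.18 and 9.95 in WT, against 9.41, 9.58 and 9.60 in the Polg mutant, -0.54 ± 0.11 (SE, limma adjusted p = 0.282). Jak1 was higher by 0.29 without overlap, and Stat3 and Tyk2 differed by 0.26 and 0.022 with overlap.

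The inhibitors included the pathway gene of smallest p. Irf2, which binds the response element and represses many of these promoters, read 8.74 and 8.69 in WT, against 8.04, 7.85 and 7.90 in the Polg mutant. Its difference was -0.79 ± 0.07 (SE, limma adjusted p = 0.192), its groups did not overlap, and the WT arrays nearly coincided. Ptpn11, which encodes the phosphatase SHP2, differed by -0.41, Pias1, a SUMO ligase, by -0.29, and Socs3, an inhibitor of JAK kinases, by 0.66 from dim WT levels of 5.27 and 5.17. Each of these 3 genes had no overlap, but they and Irf2 were named for the smallest p in the list. Of all 10 inhibitors measured 5 were higher and 5 lower, with a median difference of -0.020. All Polg mutant arrays lay above both WT arrays in 2 and below both in 3, against 8.36% and 9.73% of all genes. The other 5 overlapped.

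Upstream of the interferons, the DNA sensor gene Cgas read 5.60 to 5.66 on all arrays. Sting1, its adaptor, read 7.28 and 7.03 in WT, against 7.57, 7.26 and 6.48 in the Polg mutant, with overlap. Mavs, the mitochondrial adaptor of the RNA sensors, differed by 0.30 and had the same value on 3 arrays, and Rigi, the gene of the RNA sensor RIG-I, differed by 0.15 and had the same value on 3 arrays, with WT replicate 1 the lowest array and a difference of 0.012 against WT replicate 2 alone. Ifi204, a DNA-binding gene of the myeloid lineage, differed by 1.15 ± 0.38 (SE, limma adjusted p = 0.490) from WT levels of 4.41. Of the nucleic acid clearance genes, Rnaseh2b, a subunit of the enzyme that removes RNA from DNA, differed by -0.31 and Samhd1, a deoxynucleotide triphosphatase, by 0.19, both without overlap. Traf6, Ticam1 and Tlr3, a ligase, an adaptor and a double-stranded RNA receptor of the innate pathways, differed by 0.28, 0.34 and 0.16. Tlr3 differed by 0.030 against WT replicate 2 alone, and Traf6 and Ticam1 by 0.13 and 0.11 against WT replicate 1 alone. Of the clearance genes, Pnpt1 and Mgme1, both mitochondrial nucleases, differed by 0.24 and 0.050, and Pnpt1 by 0.13 against WT replicate 1 alone.

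Of 66 other interferon-inducible genes 54 were higher and 12 lower, with a median difference of 0.13, and the groups did not overlap in 20, with the Polg mutant higher in 16, against 8.36% of all genes, and lower in 4, against 9.73%. WT replicate 1 was alone the lowest array in 22 of them, against 18.5% of all genes, and 30 had tied values. The median difference between the WT arrays was 0, and the mean levels were 6.72 on both WT arrays and 6.92, 6.86 and 6.85 on the Polg mutant arrays. The members of smallest p were Psme1, a proteasome activator subunit (0.55), Lgals3bp, a secreted galectin ligand (0.63), Lgals9, a galectin (0.95), and Trim21, a cytosolic antibody receptor (0.52). Lgals9 read 9.99 and 10.34 in WT, against 11.28, 10.95 and 11.11 in the Polg mutant, and its limma adjusted p was 0.256.

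Markers of other marrow cells were set beside these values, since interferon-stimulated transcripts are also made by leukocytes. All 16 measured erythroid markers passed a log2 of 6 on 2 or more arrays, so markers of the labelled cells were present, and their mean was 12.05 and 11.89 in WT against 11.63 to 11.71 in the Polg mutant. All 16 had a lower mean in the Polg mutant, 14 without overlap, against 9.73% of all genes, and 9 at an unadjusted limma p under 0.05, against 5.33%. Of the 20 neutrophil markers 17 had a higher mean in the Polg mutant, but the groups overlapped in 19. The Polg mutant was higher without overlap in 1, against 8.36% of all genes. The 20 neutrophil markers had means of 7.68 and 6.77 in WT, against 8.06, 8.52 and 6.99 in the Polg mutant. By these means WT replicate 1 was above WT replicate 2, opposite to the members. Polg mutant replicate 2, the lowest of its group for 18 members, had the highest mean of its group. Single markers were split in this. Within the Polg mutant, Ltf, Camp, Ngp and S100a8 were highest on replicate 2, but Elane, Mpo, Prtn3, Ctsg and Ms4a3 on replicate 1. Ptprc, the gene of CD45, read 7.13 and 6.43 in WT, against 7.67, 7.40 and 6.06 in the Polg mutant, after a selection against CD45.

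The 20 macrophage and monocyte markers had means of 6.06 to 6.10 in WT and 5.92 to 6.29 in the Polg mutant, highest on Polg mutant replicate 1. Of these 20 markers 14 were higher in the Polg mutant, and the groups overlapped in all 20. The 11 markers of plasmacytoid dendritic cells, which are the main makers of interferon alpha and include the member Bst2, had means of 5.93 to 6.03 in WT and 5.85 to 6.26 in the Polg mutant, highest on Polg mutant replicate 1. Their defining marker Siglech read 6.59 and 6.54 in WT, against 6.96, 6.59 and 6.29 in the Polg mutant. The 12 B cell markers had means of 5.74 and 5.34 in WT, highest on WT replicate 1, and 5.06 to 5.43 in the Polg mutant. Of these 12 markers 11 were lower, 1 of them without overlap, against 9.73% of all genes. The 13 T and NK cell markers stayed between 4.81 and 4.85, and the 10 megakaryocyte and platelet markers read 5.88 and 6.52 in WT and 5.76 to 6.00 in the Polg mutant. The part of these cells in the differences of the members was not tested, and fewer cells of a type and less RNA per cell cannot be told apart in such samples.

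**Figure D5:**
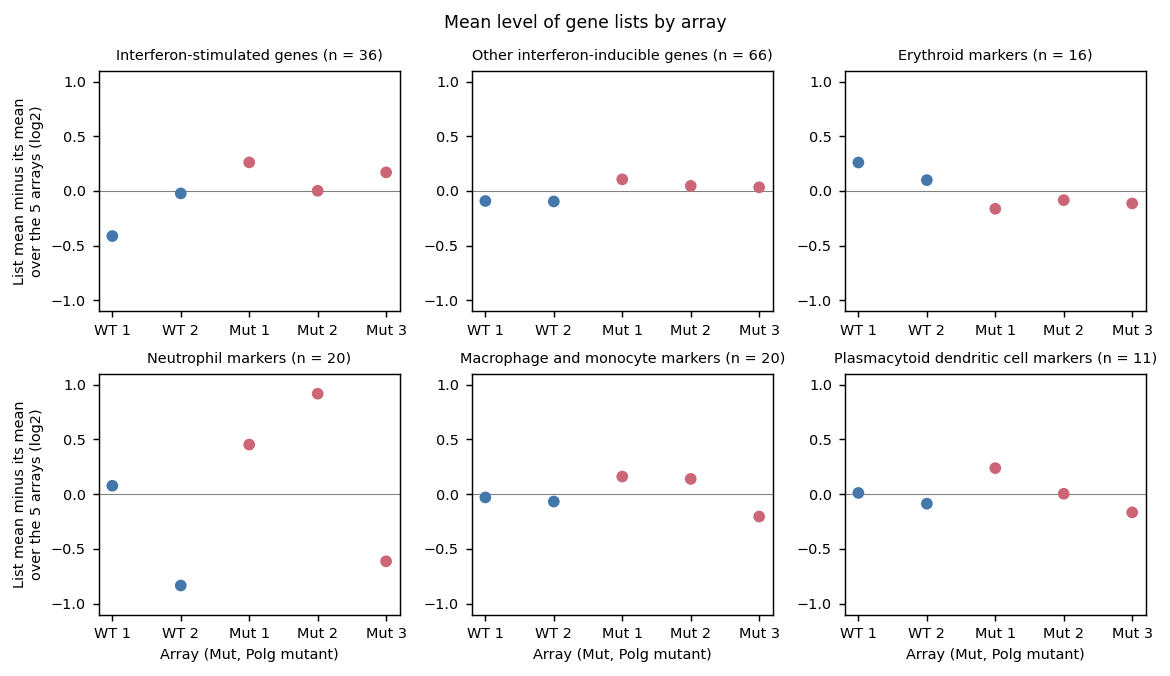
Mean log2 level of 6 gene lists on each array, minus the list's mean over the 5 arrays (blue, WT; red, Polg mutant). The interferon-stimulated genes are lowest on WT replicate 1, while the neutrophil markers are lowest on WT replicate 2 and Polg mutant replicate 3.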

How the data were processed

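Gene expression was measured on 1-colour Affymetrix arrays from 100 ng of total RNA per sample, in 2 WT and 3 Polg mutant samples. The authors deposited 1 table of log2 values for 41345 probe sets, 1 column per array. RMA and Partek 6.5 are the tools named, with no role or order, per the submitters' processing notes. For annotation and build, the answer is not given in the sources used here, and signal over background was not known. The deposited log2 values were used unchanged. The platform's annotation gave 1 symbol to 23521 probe sets, several to 1814 and none to 16010. The brightest single-symbol probe set over all arrays stood for each of 22180 genes.

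The fit used limma 3.58.1 under R 4.3.3, with genotype as the single term and empirical Bayes moderation without a trend, two-sided, adjusted over all genes at 0.05. The script was tested on simulated data. An exact permutation test of a single gene cannot go below p = 0.1 here, with 10 splits of 5 arrays. All members are described. From each pathway list the text names up to 4 genes of smallest p, plus a fixed set of ligands, receptors, sensors and Polg. The members and lists were chosen with earlier results of these data known. Alternatives were renewed quantile normalization, median centring, a limit of log2 6 on at least 2 arrays, a variance trend, untied genes alone, the mean of a gene's probe sets, a replicate block and leaving out each array.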

Additional observations from a re-analysis of the deposited data

How the results depend on the processing

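Under renewed quantile normalization limma passed 10 higher and 2 lower genes over all genes, with only genes that passed a log2 of 6 on 2 or more arrays 6 and 5, and with only genes of 5 distinct values 73 and 41. None of these was a member. Leaving out 1 array gave 0 to 713 higher and 0 to 1068 lower genes, with 0 to 1 higher and 0 to 2 lower members among them, and the counts above 0 came without WT replicate 1 or WT replicate 2. Members higher at an unadjusted p under 0.05 numbered 2 to 18 in these fits, 18 without WT replicate 2 and 2 without WT replicate 1, Polg mutant replicate 1 or Polg mutant replicate 3, and members lower 1 to 2. In the same fits 8.30% of all genes were higher at that p without WT replicate 2, 8.56% without WT replicate 1 and 3.23% to 3.74% without 1 Polg mutant array. The median difference of the members stayed between 0.15 and 0.29 in the 7 other alternatives, and was 0.046 without WT replicate 1.

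With the replicate number as a block, 1 member was higher at an unadjusted p under 0.05, in place of 7, and Ifit3 turned to -0.15. Deviations of same-numbered arrays correlated at 0.188 for number 1 and -0.201 for number 2. With 2 WT arrays the deviations of 1 are the negative of the other's, so these values cannot show or exclude pairing. The numbers were not taken to pair the samples. Renewed quantile normalization turned Herc6 to 0.023 and Trim25 to 0.029. Leaving out 1 array gave Ifit3 differences of -0.35 (without WT replicate 1) to 0.62, Usp18 -0.052 (without WT replicate 1) to 0.49, Parp12 -0.077 (without WT replicate 1) to 0.71, Herc6 -0.22 to 0.16 (without WT replicate 2) and Mx2 -0.59 to 0.046 (without Polg mutant replicate 2). Ifit3 was also negative, at -0.15, without Polg mutant replicate 3, the same difference as with the block. The cause of these changes was not tested. The fits limited to some genes held fewer genes and those without 1 array fewer arrays. The quantile fit held all genes and arrays. The block fit held all genes, but number 3 occurs only in the Polg mutant. That array was therefore fitted by its own term and added nothing to the block differences, which rest on the other arrays. No signal over background was known, so differences of dim members such as Oas1g, Mx2 and Ifit2 are uncertain.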
